A study of Mus musculus with 18 samples.

Results

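The difference between 2 mouse cell lines in their response to a mix of 3 microRNA mimics was examined: the change from control mimic to mix in Neuro-2A cells minus the same change in BV-2 cells. Of the 18 libraries of the series, 12 entered this comparison, in 4 groups of 3. The groups were Neuro-2A cells with the mix, Neuro-2A cells with the control mimic, BV-2 cells with the mix and BV-2 cells with the control mimic. Neuro-2A is a neuroblastoma line, labelled as a neuron, and BV-2 is an immortalised microglial line. The labels describe neither line as genetically modified, which leaves aside the immortalisation of BV-2. Each cell type was represented by 1 line. The mix held mimics of miR-140-5p, miR-99b-3p and miR-199a-3p, and the control mimic was cel-miR-67, a nematode microRNA. Mimics were given at 25 nM with a lipid reagent for 24 h, poly(A) RNA was sequenced, and no untransfected cells entered the comparison. Medium and plating density differed between the lines, so cell type, medium and density cannot be told apart, and the amount of mimic that reached the cells was not measured. Genes were tested where at least 10 counts were found in 3 or more libraries of each line, which left 13151 genes.

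A microRNA guides an Argonaute protein to messenger RNAs, mostly through base pairing of its seed, bases 2 to 8, with the 3′ UTR, and the bound messages are degraded or translated less. An 8mer site matches the whole seed and is followed by A. A 7mer-m8 site matches the seed without that A. A given microRNA can therefore act on different messages in different cells, because each cell line transcribes its own set of targets. The mature forms of miR-99b-3p and of miR-199a-3p are shown to give the seed, in capitals, from which the sites below were read (RefSeq, GRCm38.p6).
miR-199a-3p: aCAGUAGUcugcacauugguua
miR-99b-3p: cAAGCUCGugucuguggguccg

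The seed matches searched were ACTACTG for miR-199a-3p, CGAGCTT for miR-99b-3p, AACCACT for miR-140-5p and GGTTGTG for cel-miR-67, on the transcribed strand of the longest annotated 3′ UTR, and overlapping matches each counted. Over the 10361 tested genes with an annotated 3′ UTR, 882 held an 8mer or 7mer-m8 of miR-199a-3p, 213 of miR-99b-3p, 1148 of miR-140-5p and 1181 of cel-miR-67. The stretches below show 1 or 2 chosen sites for each of 6 genes on which the results turn, with the match in capitals, including the A of an 8mer. Ktn1 also holds 2 further 7mer-m8 sites of miR-199a-3p and 1 of cel-miR-67, Kansl1l a 7mer-m8 of miR-140-5p and Prr11 a 7mer-m8 of miR-199a-3p, which are not shown. The stretches come from mm10 and read 5′ to 3′ on the strand of the gene.
Mmd, miR-140-5p 8mer, chr11:90278501-90278528, + strand: gcactgtcaaAACCACTAaactgtattt
Prr11, miR-140-5p 8mer, chr11:87089794-87089821, - strand: aatggtaatgAACCACTAtatactgtac
Kansl1l, miR-199a-3p 8mer, chr1:66719631-66719658, - strand: tagttcccatACTACTGAaaatcctggc
Ktn1, miR-199a-3p 8mer, chr14:47736231-47736258, + strand: tccttgttagACTACTGActtaaagaga
Ktn1, miR-99b-3p 7mer-m8, chr14:47738433-47738460, + strand: cactagtgccCGAGCTTgggtgctgact
Ykt6, cel-miR-67 8mer, chr11:5966203-5966230, + strand: tcgtatgtgtGGTTGTGActttgggaag
Pgam5, cel-miR-67 8mer, chr5:110259241-110259268, - strand: tctatgaagtGGTTGTGAgcatcttctg

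Libraries held 22.4 to 23.6 M counts in Neuro-2A with the mix and 20.9 to 22.3 M with the control, and 24.4 to 25.6 M in BV-2 with the mix and 18.5 to 24.2 M with the control. All 12 microglia and macrophage markers were above 1 TPM, a share of transcripts corrected for length and depth, in every BV-2 library, and all 12 neuron markers were at or below 1 TPM there. In Neuro-2A, 8 of the 12 neuron markers were above 1 TPM in every library, while Nefl, Nefm and Dcx, a pair of neurofilament genes and doublecortin, were at or below 1 TPM in all of them. The summed neuron markers of Neuro-2A ran from 1020 to 1130 TPM with the mix and from 1240 to 1530 TPM with the control, and Tubb3 (neuronal beta-tubulin) averaged 449 ± 29.8 TPM with the mix and 636 ± 100 TPM with the control (SD, n = 3 each). The neuron markers were not among the genes tested here, and the part of this shift in the results below was not tested. In Neuro-2A, the library numbered 1 stood apart from numbers 2 and 3 in both arms, and libraries of the same number deviated together. Counts from a fit that blocks on replicate number in both lines are given beside the interaction counts and the list counts. Same-numbered BV-2 libraries did not deviate together, so the block has less ground there. List counts with the block in Neuro-2A alone are not given. Among the BV-2 controls, replicate 2 stood furthest from the others: chi-square per degree of freedom was 21 against replicate 1 and 13.97 against replicate 3, and 5.79 between replicates 1 and 3. Without it, 254 genes were below 0 and 148 above 0, in place of the 271 and 129 given next. It is not stated whether the 3 libraries of a group came from separate cultures, and p-values therefore reflect the spread among these libraries alone, which may be technical.

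The mix lowered a gene more, or raised it less, in Neuro-2A than in BV-2 for 271 of the 13151 genes (2.06%), and did the reverse for 129 (0.981%), in all 400 (3.04%), by edgeR's quasi-likelihood test of the interaction at an adjusted p under 0.05. The first are called below 0 here and the second above 0. Of them, 17 below 0 and 10 above 0 differed by at least 2-fold, and the median size of the difference was 0.54 and 0.45 on the log2 scale. Within Neuro-2A the mix lowered 1333 genes (10.1%) and raised 1035 (7.87%), in all 2368 (18%). Within BV-2 it lowered 687 (5.22%) and raised 611 (4.65%), in all 1298 (9.87%). Across the genes tested, the effects in the 2 lines had a Pearson correlation of 0.34 and a Spearman correlation of 0.32, a description over genes, which are not independent replicates. With the replicate number as a block in both lines, the mix lowered 1912 genes and raised 1671 in Neuro-2A, and lowered 1191 and raised 1173 in BV-2. With that block 730 genes were below 0 (5.55%) and 479 above 0 (3.64%), all of the 271 and 129 among them, and with the block in Neuro-2A alone 577 and 377. Leaving out 1 library gave 57 to 369 genes below 0 and 18 to 208 above 0. The counts below 0 were 167, 120 and 122 without Neuro-2A mix replicate 1, 2 or 3, 136 and 140 without Neuro-2A control replicate 2 or 3, 94, 70 and 57 without BV-2 mix replicate 1, 2 or 3, and 165 without BV-2 control replicate 3. The counts above 0 without the same libraries were 77, 41 and 33, then 53 and 54, then 28, 18 and 18, then 63, and 208 without BV-2 control replicate 1. None of the 400 differences changed its sign when 1 library was left out. The genes had been selected for a large difference in these same libraries, so an unchanged sign is no measure of stability.

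**Figure D1:**
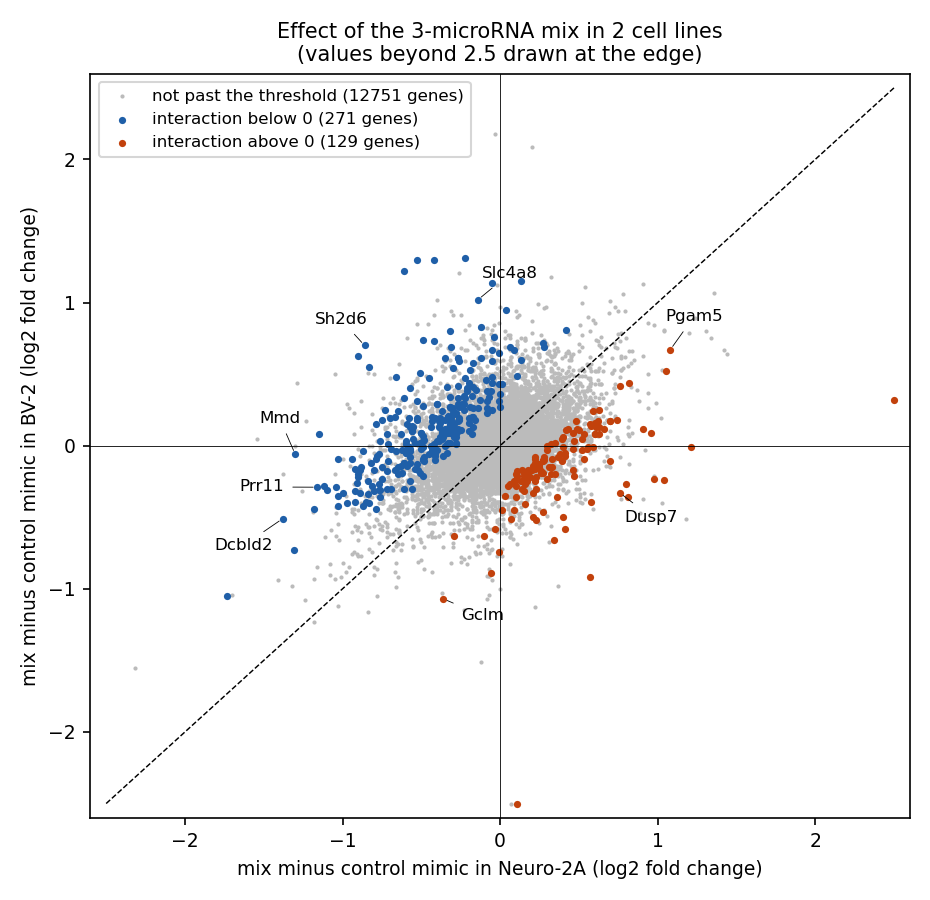
Each point is 1 of the 13151 genes tested, with the log2 fold change from control mimic to mix in Neuro-2A on the x axis and in BV-2 on the y axis; blue points are the 271 genes with an interaction below 0, red points the 129 above 0, and the dashed line marks equal effects. The blue points lie above the line and mostly left of 0, and values beyond 2.5 are drawn at the edge.

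The most frequent pattern, in 165 of the 271 genes, was a fall in Neuro-2A with no call in BV-2. The clearest example was Mmd, a membrane protein gene of the PAQR family known from macrophage maturation. Mmd had 23.5, 28.1 and 26 TPM in the Neuro-2A mix libraries, against 62.8, 64.7 and 66.2 TPM in the Neuro-2A control libraries. In BV-2 it had 12.5, 14.1 and 13.4 TPM with the mix, against 12.9, 12.6 and 14.5 TPM with the control. The groups were apart in Neuro-2A and overlapped in BV-2, and the difference was −1.24 ± 0.112 on the log2 scale (SE, adjusted p = 0.000168, edgeR). The gene carries the miR-140-5p 8mer shown above. It also overlaps Gm45716 and Gm45883 on the same strand, and Gm45883 was counted at 93, 105 and 121 reads in the Neuro-2A mix libraries and at 0 in the 3 control libraries, so the counting may have split reads between them. Summed over the 3 overlapping genes, the difference was −1.04, from −1.0 in Neuro-2A and 0.04 in BV-2.

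Other genes of this pattern included proteases, matrix genes and genes of messenger RNA decay. Adam9, a membrane metalloprotease, had 91.3, 96.9 and 103 TPM in Neuro-2A with the mix and 184, 188 and 195 TPM with the control. In BV-2, Adam9 stood at 74.5, 77.5 and 78.9 TPM with the mix and 86.2, 68.3 and 80.1 TPM with the control, which overlap. The difference of Adam9 was −0.86 ± 0.0985 (log2, SE, adjusted p = 0.00123, edgeR). Lamc1, the laminin gamma-1 chain, fell to 89.6 ± 4.11 TPM with the mix in Neuro-2A, against 167 ± 11.6 TPM with the control, and averaged 91.1 ± 1.96 TPM with the mix and 96.7 ± 10.6 TPM with the control in BV-2 (SD, n = 3 each). Cnot6, a deadenylase of the CCR4-NOT complex, fell to 64.3 ± 0.884 TPM with the mix in Neuro-2A, against 111 ± 8.57 TPM with the control, with 89.7 ± 4.0 TPM with the mix and 89.6 ± 6.85 TPM with the control in BV-2. Pafah1b2, a catalytic subunit of a platelet-activating factor acetylhydrolase, fell to 36.3 ± 1.61 TPM with the mix in Neuro-2A, against 68.0 ± 6.59 TPM with the control, with 58.5 ± 1.21 TPM with the mix and 62.8 ± 2.98 TPM with the control in BV-2. In Neuro-2A, Kansl1l fell to 3.19 ± 0.234 TPM with the mix, against 6.6 ± 0.943 TPM with the control, and Ktn1, the kinesin-binding membrane protein kinectin, fell to 34.4 ± 0.684 TPM with the mix, against 52.9 ± 1.87 TPM with the control. In BV-2, Kansl1l averaged 8.46 ± 0.369 TPM with the mix and 8.63 ± 0.813 TPM with the control, and Ktn1 17.8 ± 0.473 TPM with the mix and 16.9 ± 1.89 TPM with the control. The differences of Lamc1, Cnot6, Pafah1b2, Kansl1l and Ktn1 were −0.73, −0.71, −0.72, −0.94 and −0.61 on the log2 scale. Each of these 5 genes kept its call under every alternative tried, as did Mmd and Adam9.

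In 33 of the 271 genes the mix lowered the gene in both lines, and by more in Neuro-2A. Dcbld2, a neuropilin-like transmembrane receptor, had 22.8, 23.7 and 24.9 TPM in Neuro-2A with the mix and 65.1, 60.9 and 62.0 TPM with the control. In BV-2 it had 4.97, 5.1 and 5.33 TPM with the mix and 7.05, 6.71 and 7.18 TPM with the control. Dcbld2 also overlaps St3gal6, which lies on the opposite strand. In BV-2, St3gal6 had 642, 647 and 739 counts with the mix and 1329, 1050 and 819 with the control. In Neuro-2A it had at most 3 counts in any library. Whether reads of the pair were shared was not tested. For Dcbld2, mix and control libraries were apart in both lines, with log2 fold changes of −1.38 (Neuro-2A) and −0.51 (BV-2). The difference of Dcbld2 was −0.87 ± 0.0795 (SE, adjusted p = 0.000168, edgeR). Prr11, a proline-rich protein of the cell cycle, had 18.3, 19.7 and 20.2 TPM in Neuro-2A with the mix and 45.8, 43.3 and 42.4 TPM with the control. In BV-2, Prr11 had 21.2, 22.1 and 21.3 TPM with the mix and 25.5, 24.2 and 25.8 TPM with the control. Prr11 fell in both lines, with a log2 fold change of −1.16 (Neuro-2A) and −0.29 (BV-2) and similar levels with the mix. Dusp16, a phosphatase that inactivates the MAP kinase JNK, had log2 fold changes of −1.12 (Neuro-2A) and −0.28 (BV-2), and held no site of the mix by the rule used here. Pigq, which acts in the first step of GPI anchor synthesis, changed by −1.0 (Neuro-2A) and −0.33 (BV-2), and Fads1, the delta-5 fatty acid desaturase, by −1.03 (Neuro-2A) and −0.35 (BV-2). Adam10, the main alpha-secretase of the amyloid precursor protein, changed by −0.83 (Neuro-2A) and −0.4 (BV-2), with a difference of −0.43 ± 0.0937 (SE, adjusted p = 0.0317, edgeR). Pak4, a kinase of the actin cytoskeleton, Ywhae, the 14-3-3 epsilon adaptor, and Prdx6, a peroxiredoxin, showed the same order, with differences of −0.51, −0.42 and −0.5. Pak4 overlaps Samd4b, another protein-coding gene, on the same strand. In BV-2 with the mix, Samd4b gave 4061, 3767 and 4112 of the 4500, 4205 and 4580 summed counts of the pair. The summed change, −0.35 in Neuro-2A and 0.14 in BV-2, mostly follows Samd4b and cannot show whether Pak4 fell. Whether reads of the pair were shared was not tested.

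In 52 of the 271 genes the interaction came with a rise in BV-2 and no call in Neuro-2A. Slc4a8, a sodium-driven chloride and bicarbonate exchanger, had 21.9, 22.5 and 22.8 TPM in Neuro-2A with the mix and 24.4, 25.6 and 24.8 TPM with the control. In BV-2, where its level was lower, it had 2.36, 2.31 and 2.22 TPM with the mix and 1.04, 1.04 and 1.17 TPM with the control. The difference of Slc4a8 was −1.15 ± 0.0896 (log2, SE), with an adjusted p of 4.52e-05 by edgeR. Mxd3, a Max-binding repressor of the Myc network, had overlapping Neuro-2A groups, at 20.5, 22.2 and 26.4 TPM with the mix and 17.9, 22.1 and 23.9 TPM with the control. In BV-2, Mxd3 had 8.72, 8.65 and 8.92 TPM with the mix and 3.68, 3.71 and 3.91 TPM with the control. Mxd3 lies antiparallel to Prelid1, and since it is not stated whether counting used strand, reads of the pair cannot be told apart. Arhgef40 rose to 1.79 ± 0.147 TPM with the mix in BV-2, against 1.01 ± 0.0101 TPM with the control, close to the floor of 1 TPM. It carries a miR-140-5p 8mer and lies antiparallel to Zfp219. Marcksl1, an actin-linked substrate of protein kinase C, averaged 350 ± 18.8 TPM with the mix and 427 ± 69.2 TPM with the control in Neuro-2A, where it was not called, and rose to 269 ± 1.14 TPM with the mix in BV-2, against 167 ± 29.8 TPM with the control.

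The mix moved 22 genes in opposite directions in the 2 lines, each with a call in both lines. Of these, 13 were lower in Neuro-2A and higher in BV-2, and 9 the reverse. All 22 passed the interaction test, but opposite effects add up in that contrast of the same fit, so this is no separate evidence. Sh2d6, an SH2 domain gene, had 2.35, 3.08 and 2.84 TPM in Neuro-2A with the mix and 5.45, 5.08 and 4.61 TPM with the control. In BV-2 it had 8.54, 7.44 and 8.27 TPM with the mix and 5.31, 4.43 and 4.34 TPM with the control. The groups did not overlap in either line, and the difference was −1.57 ± 0.186 (log2, SE, adjusted p = 0.00132, edgeR), from log2 fold changes of −0.86 (Neuro-2A) and 0.7 (BV-2). Nlgn2, a postsynaptic adhesion protein of inhibitory synapses, had 29, 28.8 and 27.7 TPM in Neuro-2A with the mix and 36.7, 39.9 and 32.7 TPM with the control, but 29.2, 30.1 and 32.1 TPM in BV-2 with the mix and 24.6, 19.4 and 21.8 TPM with the control. Among the others were Plekhg2, Bcr and Chn2, with differences of −0.84, −0.55 and −0.58.

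In the other direction, Dusp7, a phosphatase that inactivates the MAP kinase ERK, had 17.4, 16.1 and 16.5 TPM in Neuro-2A with the mix and 9.32, 11.4 and 9.16 TPM with the control. In BV-2, Dusp7 had 106, 105 and 104 TPM with the mix and 132, 122 and 123 TPM with the control. The mix raised the gene in Neuro-2A and lowered it in BV-2, with a difference of 1.09 ± 0.103 (log2, SE, adjusted p = 0.000176, edgeR). Prkar1b, a regulatory subunit of protein kinase A, rose to 86.9 ± 2.77 TPM with the mix in Neuro-2A, against 69.7 ± 7.38 TPM with the control, and fell to 2.87 ± 0.285 TPM with the mix in BV-2, against 4.3 ± 0.526 TPM with the control. Cln8, an endoplasmic reticulum protein needed for lysosome function, rose to 14.4 ± 0.863 TPM with the mix in Neuro-2A, against 12.6 ± 0.391 TPM with the control, and fell to 28.1 ± 0.867 TPM with the mix in BV-2, against 33.9 ± 1.43 TPM with the control.

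**Figure D2:**
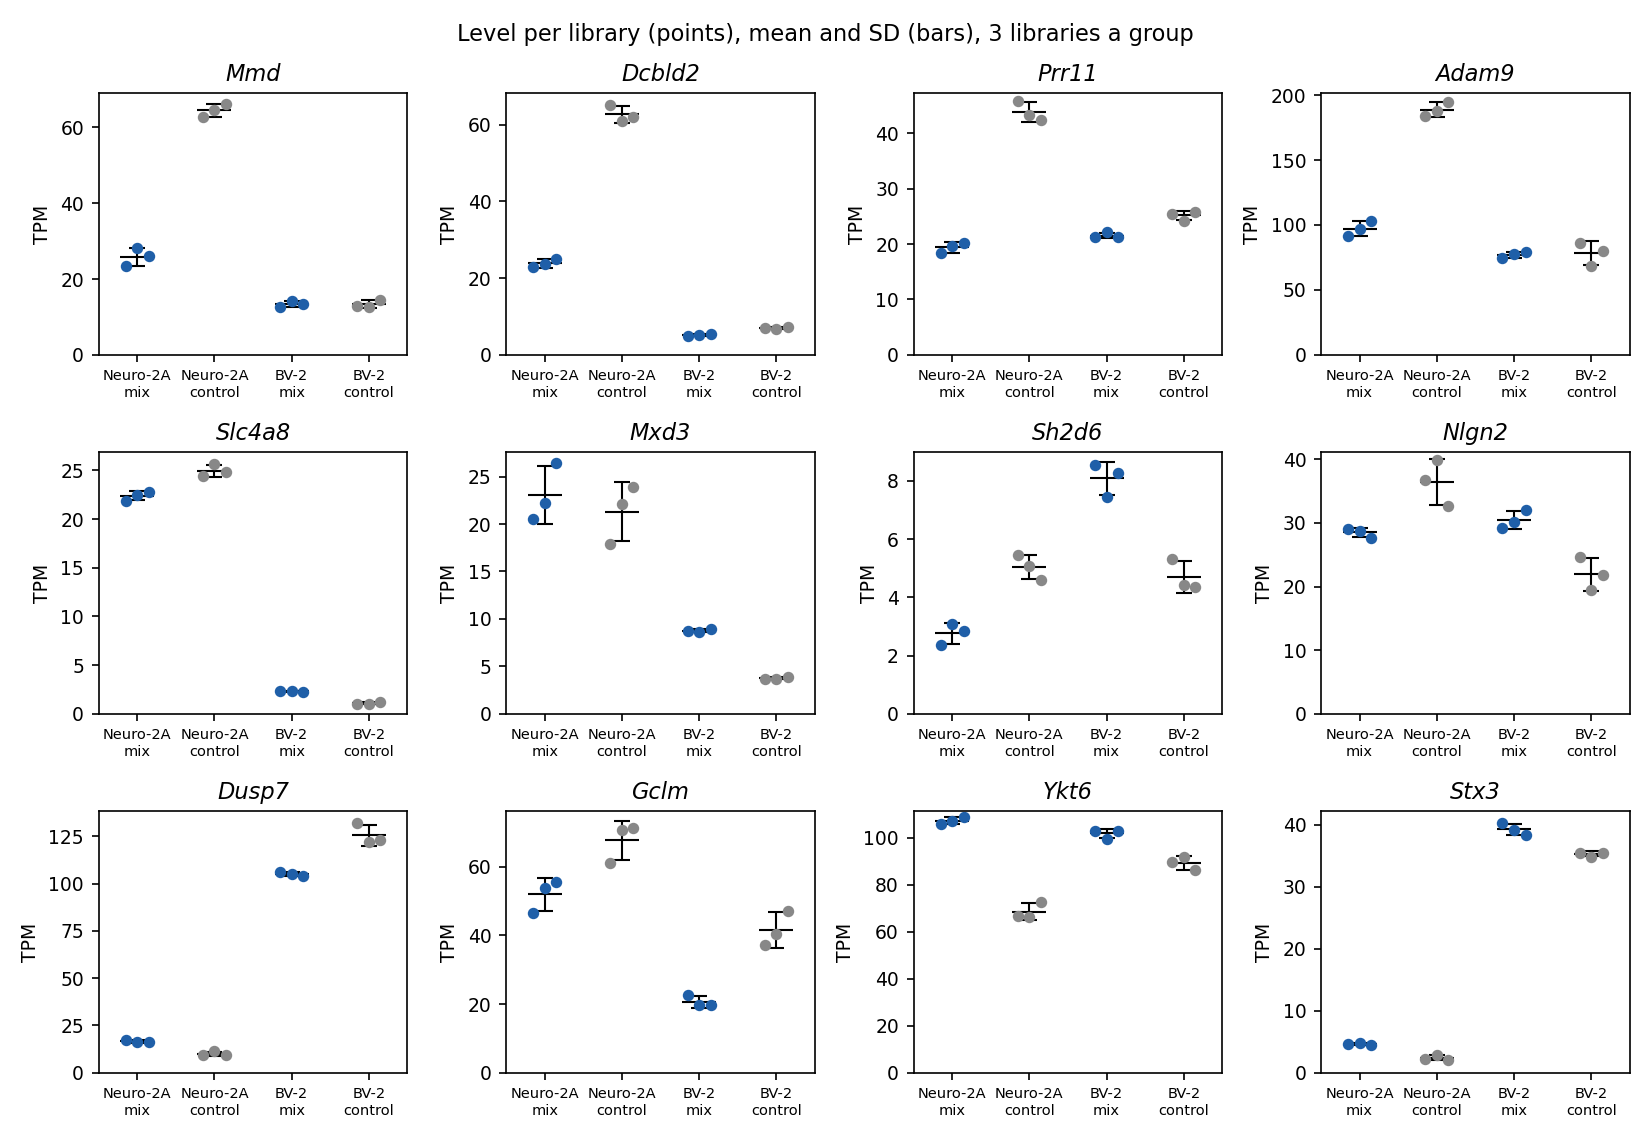
The level of 12 genes in TPM (y axis, from 0) is shown for every library as a point, by group along the x axis, with the mean and SD of 3 libraries as bars. Mmd and Adam9 differ between mix and control in Neuro-2A and overlap in BV-2, and Sh2d6, Nlgn2 and Dusp7 move in opposite directions. Relative to the control, Slc4a8 and Mxd3 change by a larger factor in BV-2 than in Neuro-2A.

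Above 0, the most frequent pattern was a rise in Neuro-2A with no call in BV-2, in 73 of the 129 genes. Ykt6, a SNARE protein of membrane fusion, had 106, 107 and 109 TPM in Neuro-2A with the mix and 66.9, 66.3 and 72.6 TPM with the control. In BV-2, Ykt6 had 103, 99.7 and 103 TPM with the mix and 89.7, 91.8 and 86.2 TPM with the control, which did not overlap but were not called at an adjusted p of 0.192. Its difference was 0.54 ± 0.0788 (log2, SE, adjusted p = 0.00447, edgeR), and its 3′ UTR holds the cel-miR-67 8mer shown above. Stx3, a plasma membrane syntaxin, rose to 4.62 ± 0.196 TPM with the mix in Neuro-2A, against 2.4 ± 0.409 TPM with the control, and averaged 39.2 ± 0.913 TPM with the mix and 35.3 ± 0.424 TPM with the control in BV-2. Def6 rose to 13.2 ± 1.13 TPM with the mix in Neuro-2A, against 7.15 ± 0.701 TPM with the control, with 79.0 ± 1.05 TPM with the mix and 69.4 ± 2.48 TPM with the control in BV-2. Erlin1, a lipid raft protein of the endoplasmic reticulum, rose to 35.7 ± 1.23 TPM with the mix in Neuro-2A, against 21.6 ± 1.41 TPM with the control, with 50.6 ± 0.874 TPM with the mix and 42.8 ± 2.92 TPM with the control in BV-2. The differences of Stx3, Def6 and Erlin1 were 0.88, 0.79 and 0.56. Hmga1, an architectural chromatin protein, and its near-identical copy Hmga1b, whose reads the counting could split, differed by 0.61 and 0.57.

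In 34 genes above 0 the mix lowered the gene in BV-2 with no call in Neuro-2A. Rassf8, a Ras association domain gene, averaged 51.4 ± 3.04 TPM with the mix and 45.0 ± 2.19 TPM with the control in Neuro-2A. In BV-2, Rassf8 fell to 47.9 ± 2.24 TPM with the mix, against 64.9 ± 7.46 TPM with the control, with a difference between the lines of 0.71 ± 0.0992 (log2, SE, adjusted p = 0.00346, edgeR). Numb, an inhibitor of Notch signalling, averaged 31.7 ± 1.8 TPM with the mix and 27.3 ± 1.31 TPM with the control in Neuro-2A, and 102 ± 1.14 TPM with the mix and 120 ± 14.5 TPM with the control in BV-2. Only Gclm and Cdt1 were lowered in both lines and by more in BV-2. Gclm, the modifier subunit of the enzyme that starts glutathione synthesis, had 46.4, 53.8 and 55.6 TPM in Neuro-2A with the mix and 61.2, 70.7 and 71.2 TPM with the control. In BV-2, Gclm had 22.7, 19.7 and 19.6 TPM with the mix and 37.1, 40.3 and 47.2 TPM with the control. Its log2 fold changes were −0.36 (Neuro-2A) and −1.07 (BV-2), and it holds 7mer-m8 sites both of miR-140-5p and of miR-199a-3p. Gclm overlaps the pseudogene Gm6061 on the same strand, and for the summed counts the changes were −0.19 (Neuro-2A) and −0.37 (BV-2), a difference of 0.18 beside 0.71. In BV-2 with the mix, Gm6061 gave 2793, 2665 and 2774 of the 3996, 3674 and 3827 summed counts. The sum therefore mostly follows the pseudogene, and whether reads were split between the pair was not tested. Without BV-2 mix replicate 2 or 3, or without Neuro-2A mix replicate 2 or 3, the difference of Gclm lost its call. Cdt1, a licensing factor of DNA replication, changed by −0.29 (Neuro-2A) and −0.63 (BV-2), and summed with Gm20388, which overlaps it on the same strand, its difference was 0.18 in place of 0.35. Pgam5, a mitochondrial phosphatase with a cel-miR-67 8mer, rose in both lines and by more in Neuro-2A: it had 88.7, 89.2 and 95.6 TPM with the mix and 43.6, 41.9 and 45.2 TPM with the control there, and 63.7, 65.2 and 64.3 TPM with the mix and 36.9, 39.7 and 39.1 TPM with the control in BV-2.

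Over 3′ UTRs of all lengths together, the share of genes with a seed site of the mix was higher below 0, and lower above 0, than over all genes. Of the 255 genes below 0 with an annotated 3′ UTR, 47.8% held an 8mer or 7mer-m8 of the mix and 19.6% an 8mer. Above 0 these shares were 12.4% and 1.65% of 121 genes, and over all 10361 tested genes with a 3′ UTR 19% and 4.79%. Sites of cel-miR-67, the control, ran the other way, at 9.02% below 0, 19% above 0 and 11.4% over all. Such shares were not particular to the interaction. Of all genes lowered by the mix, a mix site was held by 46.2% of 1217 in Neuro-2A and 39.7% of 632 in BV-2. An 8mer of the mix was held by 16.7% and 16% of them. Of all genes raised, 28.3% of 965 in Neuro-2A and 32% of 569 in BV-2 held a cel-miR-67 site. Among the genes below 0, a mix site was held by 82.8% of the 29 genes lowered in both lines, 51.6% of the 159 lowered in Neuro-2A with no call in BV-2, 26.5% of the 49 raised in BV-2 with no call in Neuro-2A, and 2 of the 12 lowered in Neuro-2A and raised in BV-2. The 3′ UTRs differed in length as well: their median was 2048 nt below 0, 1187 nt above 0 and 1162 nt over all genes. Among the 2588 genes with the longest 3′ UTRs, from 2262 nt, a mix site was held by 70.8% of 113 genes below 0, 22.2% of 27 above 0 and 40.8% over all. Among the 2591 genes with 3′ UTRs from 1163 to 2260 nt, the shares were 41.8% of 67, 16.7% of 36 and 21.5%. From 501 to 1162 nt they were closer together, at 14.8% of 54, 3.57% of 28 and 10.7%. From 20 to 500 nt they were 28.6% of 21, 6.67% of 30 and 3.2%, so that there the share above 0 was not lower than over all genes. With the replicate block, 39.8% of 683 genes below 0 and 13.2% of 448 above 0 held a mix site.

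**Figure D3:**
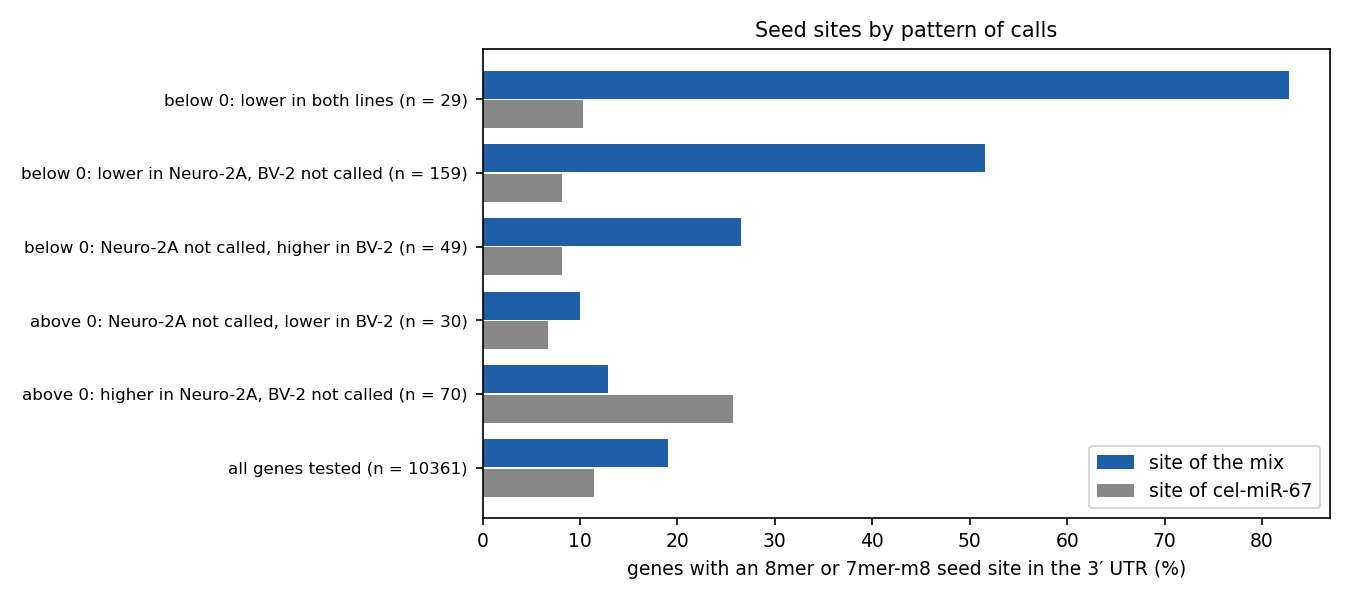
Bars give the percentage of genes with an 8mer or 7mer-m8 site of the mix (blue) or of cel-miR-67 (grey) in the 3′ UTR, for 5 patterns of calls and for all genes tested, with the number of genes with a 3′ UTR in brackets. The share with a mix site is 82.8% among genes below 0 lowered in both lines and 12.9% among genes above 0 raised in Neuro-2A, where 25.7% hold a cel-miR-67 site.

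Over all genes with an 8mer of the mix, called or not, the median change was below 0 in both lines and lower in Neuro-2A. Genes with a miR-199a-3p 8mer had a median log2 fold change of −0.207 in Neuro-2A and −0.111 in BV-2 (281 genes). The median was −0.205 (Neuro-2A) and −0.094 (BV-2) for a miR-140-5p 8mer (212 genes), and −0.081 (Neuro-2A) and 0.001 (BV-2) for an 8mer or 7mer-m8 of miR-99b-3p (213 genes, 17 of them with an 8mer). Genes with no site of the 4 microRNAs had medians of 0.021 in Neuro-2A and −0.002 in BV-2 (7589 genes). For the 8mers of the mix together, the median of each Neuro-2A mix library relative to its controls was −0.229, −0.188 and −0.174, against −0.095, −0.092 and −0.089 for the BV-2 mix libraries. The values of the 2 lines did not overlap, and Neuro-2A replicate 1, which stands apart, had the lowest value. The 3 values of a line share the same control mean, so their spread leaves out the spread of the controls. The same order held for genes with at least 10 TPM in all 4 groups, with medians of −0.194 in Neuro-2A and −0.122 in BV-2 (314 genes). Of the 496 genes with an 8mer of the mix, 203 were lowered in Neuro-2A (40.9%) and 101 in BV-2 (20.4%), 50 were below 0 and 2 above 0 (Cdt1 and Fmnl1, an actin-binding formin). Over these genes the effects in the 2 lines had a Pearson correlation of 0.63, given as a description over genes.

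Genes with a cel-miR-67 site were higher with the mix than with the control in both lines. Their median log2 fold change was 0.066 in Neuro-2A and 0.061 in BV-2 (1181 genes), with a median difference of 0.005, and for 8mers alone 0.094 (Neuro-2A) and 0.056 (BV-2) over 423 genes, with a median difference of 0.028. In all, 264 genes were raised in both lines, and 50% of the 248 with a 3′ UTR held a cel-miR-67 site, whereas 391 were lowered in both and 55.3% of 367 held a mix site. A rise with the mix in either line is relative to cells that carry cel-miR-67.

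**Figure D4:**
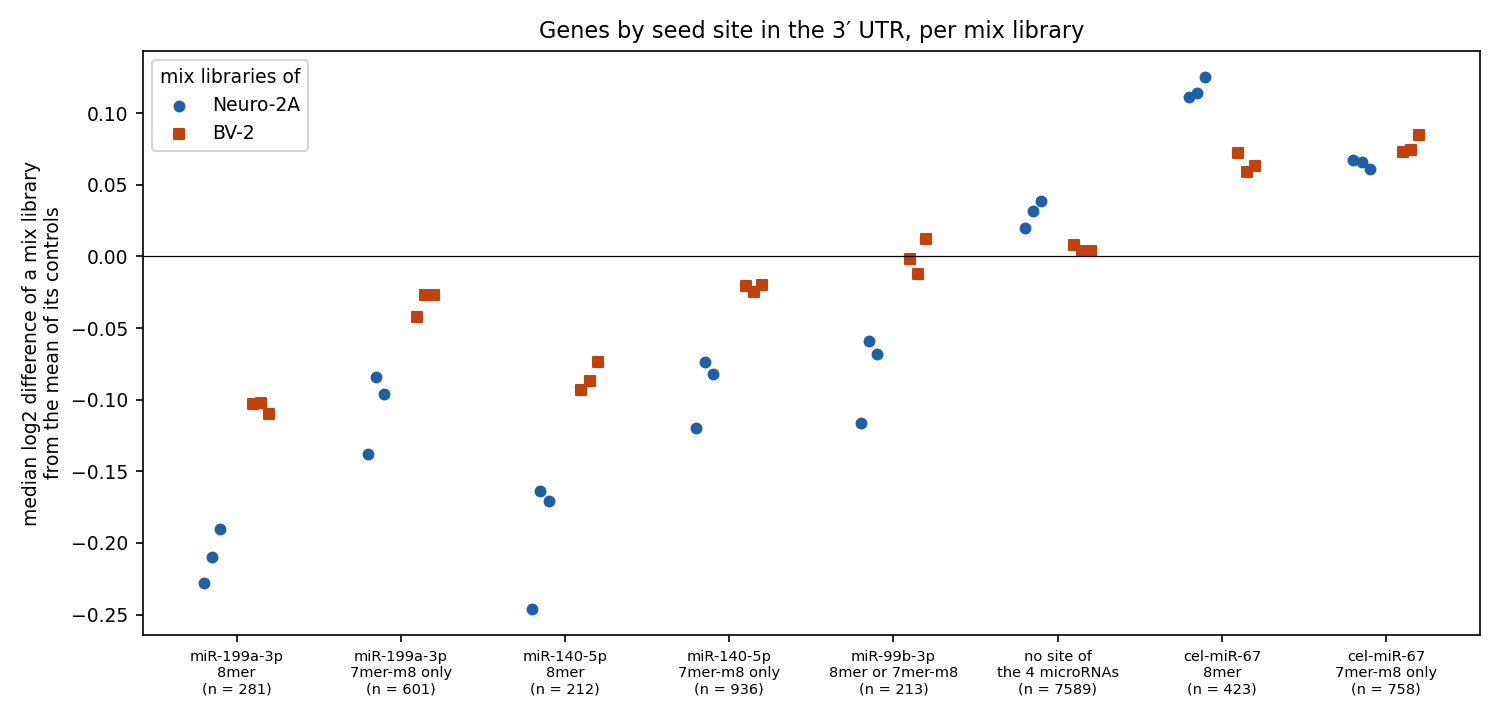
Points give, for each of the 3 mix libraries of Neuro-2A (circles) and BV-2 (squares), the median over genes of the log2 level relative to the mean of the 3 control libraries of that line (y axis), by seed site class (x axis, number of genes below). The Neuro-2A points lie below the BV-2 points for every class of the mix shown, and both lie above 0 for cel-miR-67.

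Of 30 pathway lists, fatty acid synthesis had the lowest median difference. For comparison with the counts of list members, 2.06% of all genes tested were below 0 and 0.981% above 0, and 5.55% and 3.64% with the replicate block. Of 24 genes of fatty acid synthesis tested, 3 were below 0 (12.5%) and none above 0, and their median difference was −0.255, beside 0.005 over all genes. The 3 were Fads1, Acsl3, an acyl-CoA synthetase, and Fasn, the fatty acid synthase, which averaged 198 ± 11.5 TPM with the mix and 229 ± 11.3 TPM with the control in Neuro-2A and 208 ± 0.813 TPM with the mix and 178 ± 17 TPM with the control in BV-2. With the replicate block 9 of the 24 were below 0 (37.5%). Fads1 kept its call under all 21 alternatives, Fasn under 11 and Acsl3 under 9. Of 35 cholesterol genes, 2 were below 0. One of them was Srebf1, a transcription factor of lipid synthesis, which was higher with the mix in BV-2 by 0.26 on the log2 scale. Nr1h3, the sterol-sensing receptor LXR alpha, was above 0, and with the block 11 of the 35 were below 0 and 3 above 0. Of 45 glycosylation and GPI anchor genes, Pigq and Man2a1, a mannosidase of N-glycan processing, were below 0 and St3gal5, the GM3 ganglioside synthase, above 0. With the block these were 8 and 1. Man2a1 rose in BV-2, by 0.29 on the log2 scale, with no call in Neuro-2A.

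Among cell cycle lists, mitosis had a median difference below 0 and DNA replication one above 0. Of 40 genes of mitosis, 2 were below 0 (5%, beside 2.06% of all genes), Foxm1, a transcription factor of mitotic genes, and Cdc25b, a phosphatase that activates Cdk1. The median difference of the mitosis list was −0.209, with medians of −0.005 in Neuro-2A and 0.171 in BV-2, where 12 of the 40 rose and none fell. With the block, 11 were below 0 (27.5%, beside 5.55%). Foxm1 averaged 53.5 ± 4.02 TPM with the mix and 70.9 ± 6.64 TPM with the control in Neuro-2A, and 45.1 ± 0.649 TPM with the mix and 39.4 ± 1.04 TPM with the control in BV-2. Of 42 genes of DNA replication, 3 were above 0 (7.14%, beside 0.981%), Cdt1, Gins4 and Orc2, parts of origin licensing and of the replicative helicase, and none below 0. Their median difference was 0.164, and with the block 7 were above 0 (16.7%, beside 3.64%). Under 21 alternatives, Cdt1 and Gins4 each kept the call in 10 and Orc2 in 8. Of 68 cytosolic ribosomal protein genes, 1, Rpl18, was above 0 (1.47%, near the 0.981% of all genes), the median difference was 0.169 and all 68 values lay between 0.02 and 0.5. Ribosomal protein genes have many processed pseudogenes, among which reads may have been split. With the block 4 of the 68 were above 0 (5.88%).

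Of 20 extracellular matrix genes tested, 4 were below 0 (20%, beside 2.06% of all genes) and 7 with the block (35%, beside 5.55%). The 4 were Lamc1, Plod1, a collagen lysyl hydroxylase, Adamts4, a protease that cuts aggrecan, and the proteoglycan Vcan, which was at or below 1 TPM in every BV-2 library. Lamc1 kept its call under all 21 alternatives, Plod1 under 19, Adamts4 under 11, and Vcan under 11 of 20. Of 30 genes of TGF-beta and BMP signalling, the receptors Tgfbr1 and Bmpr2 were below 0 and none above 0, and each fell in Neuro-2A, by 0.44 and 0.62 on the log2 scale, with values of 0.0 and −0.03 in BV-2. Together they are 6.67% of that list, and with the block 5 were below 0 (16.7%) and 1 above 0. Tgfbr1 has a miR-140-5p 8mer. Its call was kept under 14 of 21 alternatives, and that of Bmpr2 under 10. Of 25 genes of amyloid processing and Notch, Adam10, Adam9 and Notch1 were below 0 (12%) and Numb above 0 (4%), and with the block 7 (28%) and 1 (4%). Adam10 and Adam9 fell in Neuro-2A, whereas Notch1 rose in BV-2, by 0.73 on the log2 scale, with no call in Neuro-2A. Notch1 was at or below 1 TPM in all 12 libraries. Of the 14 neuronal and synaptic genes that passed the count filter in both lines, 3 were below 0 (21.4%), Syt11 and Shank1 among them, and with the block 6 (42.9%) and 1 above 0. Syt11, a synaptotagmin of vesicle traffic, fell to 56.8 ± 6.5 TPM with the mix in Neuro-2A, against 95.4 ± 6.18 TPM with the control, and averaged 21.6 ± 0.357 TPM with the mix and 17.4 ± 1.33 TPM with the control in BV-2. Shank1 rose in BV-2, by 1.14 on the log2 scale, with no call in Neuro-2A, and was at or below 1 TPM in every BV-2 library. Syt11 kept its interaction call under all 21 alternatives, and Shank1 under 10 of 20.

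Of 34 genes of membrane fusion, 3 were above 0, Ykt6, Stx3 and Nsf, the ATPase that takes SNARE complexes apart (8.82%, beside 0.981% of all genes), and 1 was below 0. With the block 5 were above 0 (14.7%, beside 3.64%) and 2 below 0. Ykt6 and Stx3 kept their calls under all 21 alternatives, and Nsf under 7. Of 40 genes of microRNA silencing and mRNA decay, 3 were below 0, Cnot6, the Argonaute gene Ago1 and the RNA helicase gene Ddx6, and none above 0. These 3 are 7.5% of the list, beside 2.06% of all genes, and with the block 8 were below 0 (20%, beside 5.55%). Cnot6 kept its call under all 21 alternatives, Ddx6 under 12 and Ago1 under 9. Ago1, which holds a miR-199a-3p 8mer, averaged 15.1 ± 0.177 TPM with the mix and 27.3 ± 2.75 TPM with the control in Neuro-2A, and 18.1 ± 0.428 TPM with the mix and 20.6 ± 3.82 TPM with the control in BV-2. Of 40 genes of MAP kinase signalling and its phosphatases, Dusp16 and Mapk8, the kinase JNK1, were below 0 (5%) and Dusp7 above 0 (2.5%), and with the block 3 (7.5%) and 3 (7.5%). None of 42 interferon response genes, 33 of amino acid transport and the Atf4 response, 30 of protein folding in the endoplasmic reticulum, 51 of the mitochondrial ribosome, 35 of glycolysis and hypoxia and 21 tetraspanin and integrin genes passed the interaction test by edgeR, though with the block each of these lists had 2 or more calls, among them 5 interferon genes above 0.

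**Figure D5:**
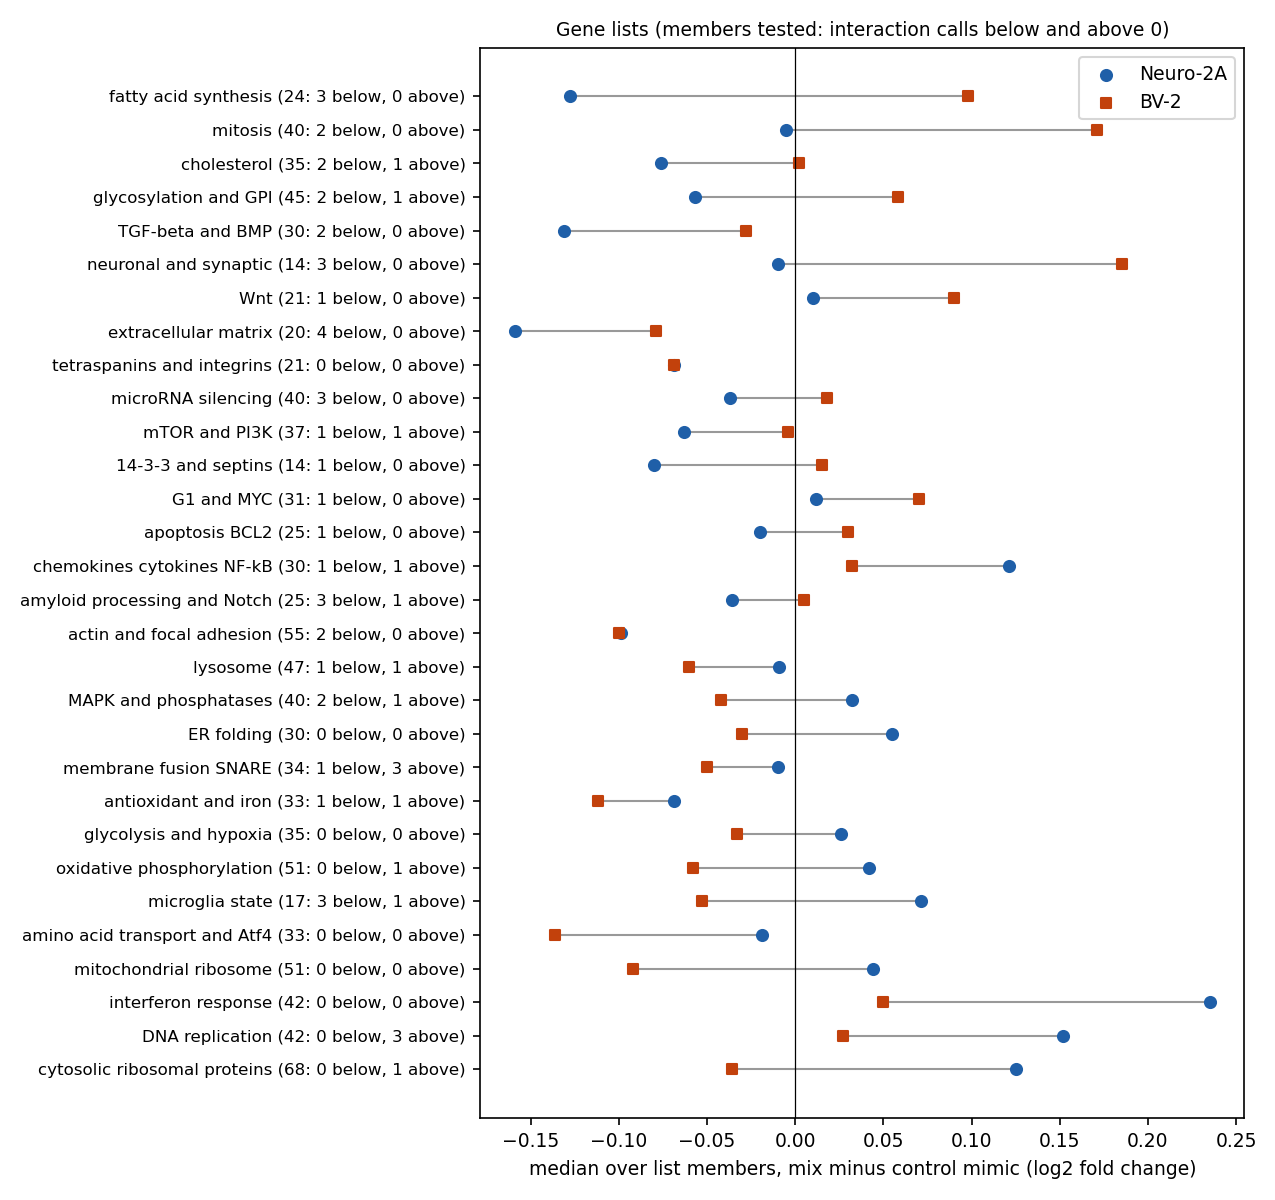
For each of 30 gene lists (rows), the median log2 fold change from control mimic to mix over its tested members is shown for Neuro-2A (circle) and BV-2 (square), with the number of members tested and the interaction calls in brackets. Rows are ordered by the median difference, from fatty acid synthesis at −0.255 at the top to cytosolic ribosomal proteins at 0.169 at the bottom.

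A few calls rest on low or unstable counts. Fam89b had the largest value above 0 among the genes named, 5.9 ± 1.44 (log2, SE), but its counts in BV-2 were 0, 13 and 0 with the mix and 370, 3 and 254 with the control, and it overlaps Sssca1 on the same strand. Summed over Fam89b and Sssca1, the difference was 0.19. Lgals3, the microglial lectin galectin-3, had 40, 68 and 71 counts in Neuro-2A with the mix and 19, 41 and 35 with the control, while in BV-2 it averaged 2010 ± 63.4 TPM with the mix and 2470 ± 47.2 TPM with the control. Plppr3, a phospholipid phosphatase-related gene, had 31, 33 and 31 counts in BV-2 with the mix and 13, 12 and 8 with the control, and was at or below 1 TPM in all 6 BV-2 libraries. Of the 99 genes named by the rule, 33 kept their call under every alternative. The call of Fam89b was kept under only 7 of 20 alternatives, and DESeq2 and limma were among those that lost it.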

How the data were processed

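Expected counts per gene and log2 TPM values were deposited by the authors for 53342 genes of mouse, and 35.7 to 41.6% of the count values per library were not whole. The submitters' processing notes name Trimmomatic 0.39, STAR 2.7.10b and the build mm10, with no role or order for each. How reads were assigned to genes, and whether strand was used, is not given in the sources used here. Library construction was strand-specific with poly(A) selection, per the labels' protocols. In the deposited log2 values, 1 TPM or less is set to 0, so levels have a floor of 1 TPM. Counts were rounded and tested with edgeR 4.0.16 (R 4.3.3): TMM scaling, 4 group means over 12 libraries, quasi-likelihood contrasts and Benjamini-Hochberg adjustment over all 13151 genes at 0.05. On simulated data for the interaction, 86% of genes changed by 1 and 32% of genes changed by 0.5 on the log2 scale were recovered. The simulation gave every gene the same spread between libraries and drew the libraries independently. It held no library that stood apart, so these rates may not hold for the real libraries.

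Library totals ran from 18.5 to 25.6 M counts, and no 2 libraries of a group agreed within sampling noise. Same-numbered Neuro-2A libraries deviated together (correlations of 0.767, 0.646 and 0.473 over 12626 genes), and those of BV-2 did not (−0.023, 0.221 and −0.032 over 11736 genes). In Neuro-2A, mix 2 with control 3 and mix 3 with control 2 also correlated, at 0.392 and 0.269. The pattern thus partly reflects number 1 standing apart from numbers 2 and 3. The alternatives were DESeq2 1.42.0, RLE scaling, no filter, a minimum of 50 counts, all 18 libraries, limma 3.58.1 on log2 TPM, a replicate block and each library left out. A block in Neuro-2A alone, and Neuro-2A numbers 2 and 3 alone, were added after seeing the data, as were the sums over overlapping genes.

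Seed matches were searched in the longest 3′ UTR of each protein-coding gene in GENCODE M21. The letters for miR-140-5p were checked against its hairpin, and those for cel-miR-67 are general knowledge. Genes were named among protein-coding interaction calls by a fixed rule: the 12 lowest and 12 highest values with at least 5 TPM in each line, the 5 smallest p in each direction, the 8 lowest and 8 highest of opposite sign, up to 4 members of each list, and the genes of smallest p with an 8mer (6 in each direction for the mix, 4 for cel-miR-67). Gm45716, Gm45883, Gm20388, Sssca1 and other overlapping genes were named after their values were seen. The comparison and the gene lists were chosen with earlier results of these data known. Some genes and sequences that the rule would name are not reported here.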

Additional observations from a re-analysis of the deposited data

Results flagged for a closer look

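The difference between the lines in the effect of the mix was itself tested by the interaction contrast in edgeR, and 271 genes lay below 0 and 129 above 0. The genes below also passed in each line alone, with opposite signs, in contrasts of the same fit that are not independent of the interaction. Values are Neuro-2A minus BV-2 log2 differences.

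Below 0, with a fall in Neuro-2A and a rise in BV-2, the difference was −1.72 for Plppr3, whose BV-2 libraries were all at or below 1 TPM. It was −1.57 for Sh2d6, −0.84 for Plekhg2 and −0.74 for Nlgn2. It was −0.66 for Slc5a3, a myo-inositol transporter, and −0.29 when its counts were summed with the overlapping Mrps6. Mrps6 is another protein-coding gene and gave 1055, 1040 and 1034 of the 2100, 2079 and 2034 summed counts in BV-2 with the mix. The sum is therefore no measure of Slc5a3 alone. The difference was −0.58 for Chn2, −0.55 for Bcr and −0.53 for Pcbp4, an RNA-binding protein.

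Above 0, with a rise in Neuro-2A and a fall in BV-2, the difference was 0.35 for Pum3, 0.37 for the sorting nexin Snx5 and 0.46 for Arhgap10. It was 0.55 for Cln8 and 0.72 for Spsb4. It was 1.0 for Prkar1b, 1.09 for Dusp7 and 1.17 for Lgals3, which had few counts in Neuro-2A.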

How the results depend on the processing

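Against 271 genes below 0 and 129 above 0, DESeq2 gave 437 and 283, all 18 libraries 622 and 355, the replicate block 730 and 479, and the block in Neuro-2A alone 577 and 377. limma on log2 TPM gave 545 below 0 and 93 above 0, with a median over all genes of −0.075, and 1 of the 129 genes changed sign there. RLE scaling gave 263 and 131, no filter 207 and 108, at least 50 counts 310 and 140, and Neuro-2A numbers 2 and 3 alone 283 and 105. Leaving out 1 library gave 57 to 369 below 0 and 18 to 208 above 0. Within Neuro-2A it gave 1018 to 1624 genes lowered and 716 to 1390 raised, and within BV-2 328 to 816 lowered and 288 to 761 raised. The BV-2 counts were 328, 357 and 383 lowered and 288, 303 and 327 raised without BV-2 mix replicate 1, 2 or 3. With the replicate block, 1671 genes were raised in Neuro-2A, 1191 were lowered in BV-2 and 1173 raised in BV-2. With the block in Neuro-2A alone, 1072 were lowered and 1001 raised in BV-2. All 18 libraries gave 959 genes raised in BV-2, and Neuro-2A numbers 2 and 3 alone 948. With 8mers alone the median difference was −0.138 for miR-140-5p, in place of −0.081, and 0.028 for cel-miR-67, in place of 0.005. With the replicate block 103 list members were below 0 and 61 above 0, in place of 37 and 17. The cause of these shifts was not tested. Of the 99 named genes, 33 kept their call under every alternative run for them. Low counts limit genes near the floor of 1 TPM.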
